A study of Mus musculus with 3 samples.

Results

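RAW264.7 cells, an established mouse macrophage line, were given 500 µM palmitate or 500 µM oleate for 6 hours, and the RNA of each culture was measured on 1 whole-transcript Affymetrix array. Palmitate is a saturated fatty acid; oleate is longer and carries 1 double bond in the cis form. Each was dissolved with ethanol and KOH and bound to fatty acid-free bovine albumin at a ratio of 2 to 1, and the cells were grown in DMEM with serum and antibiotics, so carrier, solvent and medium were common to both cultures. The comparison described here is the palmitate array minus the oleate array. A further array, of cells given the trans isomer elaidate at the same dose and time, entered only the filter on low values and is quoted beside the other values for reference. The comparison asks how a saturated fatty acid differs from a cis monounsaturated one in its effect on macrophage gene expression. Chain length and saturation differ together in this pair and cannot be told apart.

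Every gene with a probe set of its own was considered, 18820 in all, and the 9410 whose mean over the 3 arrays reached the median of all genes were kept. Each difference is on the log2 scale, palmitate minus oleate, so that 1 is 2-fold higher on the palmitate array and -1 is 2-fold lower. At this limit 155 genes were higher and 115 were lower, which is 1.65% and 1.22% of the genes kept and 2.87% in both directions together. There was 1 array on each side and no array of untreated cells. All differences are therefore sizes between a pair of cultures, without a test, a replicate error or a reference to cells that received no fatty acid.

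Palmitate and oleate enter the same pool of acyl-CoA and are built into the membranes and neutral lipids of the cell. Long saturated acyl chains are known to stiffen the membrane of the endoplasmic reticulum and to switch on its stress sensors, while oleate is readily stored as triglyceride. One arm of that stress signalling, shared with amino acid shortage, slows translation through the initiation factor eIF2 and favours translation of the transcription factor ATF4, whose targets import and make amino acids and charge transfer RNAs. In macrophages, saturated fatty acids are also known to raise inflammatory gene expression.

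The cells carried the markers of their label. All 10 macrophage markers passed the filter, among them the lineage factor gene Spi1 at log2 values of 11.28 with oleate and 11.18 with palmitate, the growth factor receptor gene Csf1r at 11.16 and 10.70, and Cd68 at 11.77 on both arrays. None of the 10 was higher on the palmitate array, 7 were lower and 3 were equal, and their log2 values summed to 100.5 with oleate, 99.8 with elaidate and 97.4 with palmitate. Markers of other cells lay low. None of 11 lymphocyte markers, 2 of 10 dendritic cell markers, 2 of 9 fibroblast markers and 1 of 9 adipocyte and hepatocyte markers passed the filter, and their summed values differed little between the oleate and palmitate arrays, at 29.5 and 29.6, 29.6 and 29.5, 28.7 and 28.8, and 29.6 and 29.5. Osteoclast markers, which macrophages can share, passed the filter for 5 of 12, with sums of 55.2 and 54.8. Fewer cells of a type and less RNA per cell cannot be told apart in such cultures.

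Higher values reached further than lower ones. Of the genes higher with palmitate, 98 were from 2-fold to under 3-fold, 24 from 3-fold to under 4-fold, 25 from 4-fold to under 8-fold, and 8 were 8-fold or more. Of the genes lower, 91, 14 and 10 fell in the first of these 3 classes and none was 8-fold lower. The median size was 2.54-fold for the higher and 2.36-fold for the lower genes. Over all 9410 genes the median difference was 0 and the standard deviation 0.38. Of these genes 30.9% were higher, 36.8% were lower and 32.3% had equal values on both arrays to within 1e-06. Equal values were commoner at low levels, with 50.8% in the lowest quartile of mean level and 19.2% in the highest. List medians of 0 can rest on such equal values, which do not show that expression was the same. Centring each array on its own median would move every difference by -0.04, so counts of higher, lower and equal genes hold for the deposited scale. The only error that the arrays themselves hold is that between probe sets of the same gene. For 986 genes with several probe sets past the filter, the pooled standard deviation of their differences was 0.148. It contains no difference between cultures. Of the 270 genes at the 2-fold limit, 264 rest on 1 probe set, and the other 6 had all probe sets in the same direction. Just inside the limit lay C9orf72 at 1.001, and just outside it Taf15 at 0.999 and Cdc42se1 at -0.999. At the filter, Foxo4 with a mean of 4.14 was the lowest gene kept and Mboat4, also at 4.14, was just left out. Of the higher genes 3 lay under that level on the oleate array, Gpat3, Gbp8 and Il23a, and of the lower genes 1, Arhgef40, did on the palmitate array.

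**Figure D1:**
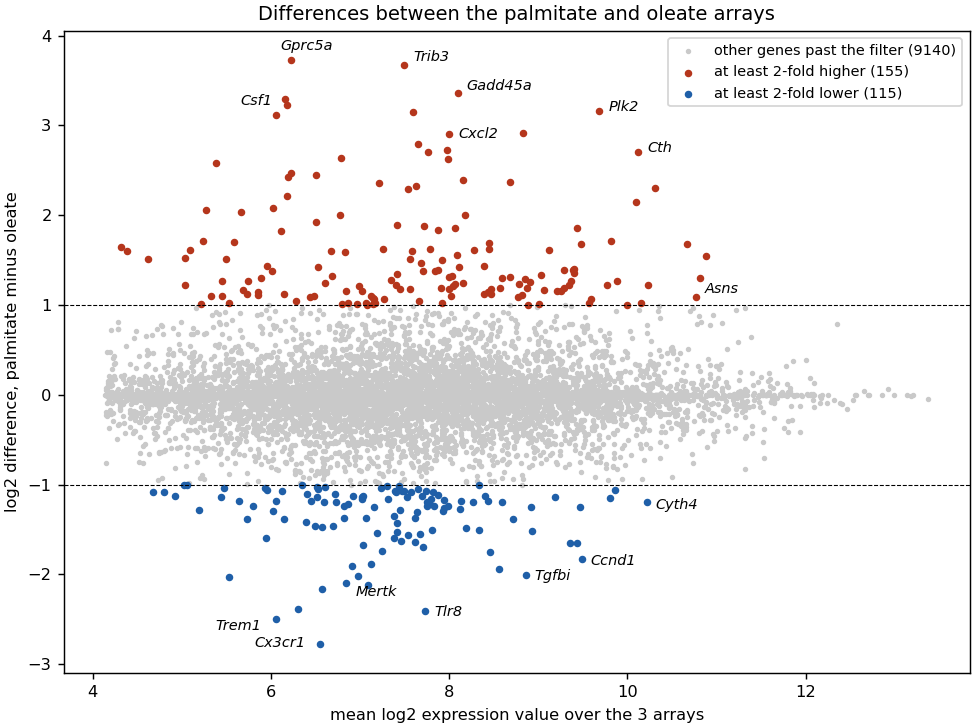
Difference between the palmitate and oleate arrays (log2, vertical axis) against the mean log2 value over the 3 arrays (horizontal axis) for the 9410 genes past the filter, each point 1 gene. Dashed lines mark 2-fold. The 155 red points reach 3.72 for Gprc5a and the 115 blue points reach -2.77 for Cx3cr1.

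Of the 270 genes, 240 were placed in 31 groups by what their products are known to do, and 30 were not placed. The groups were drawn up after the values were seen, so their counts describe the 2 lists and carry no test. No gene was lower in the groups of stress response regulators, amino acid transporters, transfer RNA charging and translation, endoplasmic reticulum genes, growth arrest genes, interferon-inducible genes, or retinoid and mitochondrial enzymes. No gene was higher in the groups of G1 cyclins and E2F factors or of complement, matrix and phagocyte effector genes. All these counts depend on placement. The inhibitor gene Cdkn2c, at -1.04, was placed with the G1 cyclins. Irf8, an interferon regulatory factor gene at -1.38, was placed with the lineage factors. Saa3 and Lcn2, both 2-fold higher, are in the fixed list of matrix, protease and phagocyte genes but were placed with the inflammatory effectors. Receptors, G protein signalling, cytoskeletal regulators and lipid enzymes held both.

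**Figure D2:**
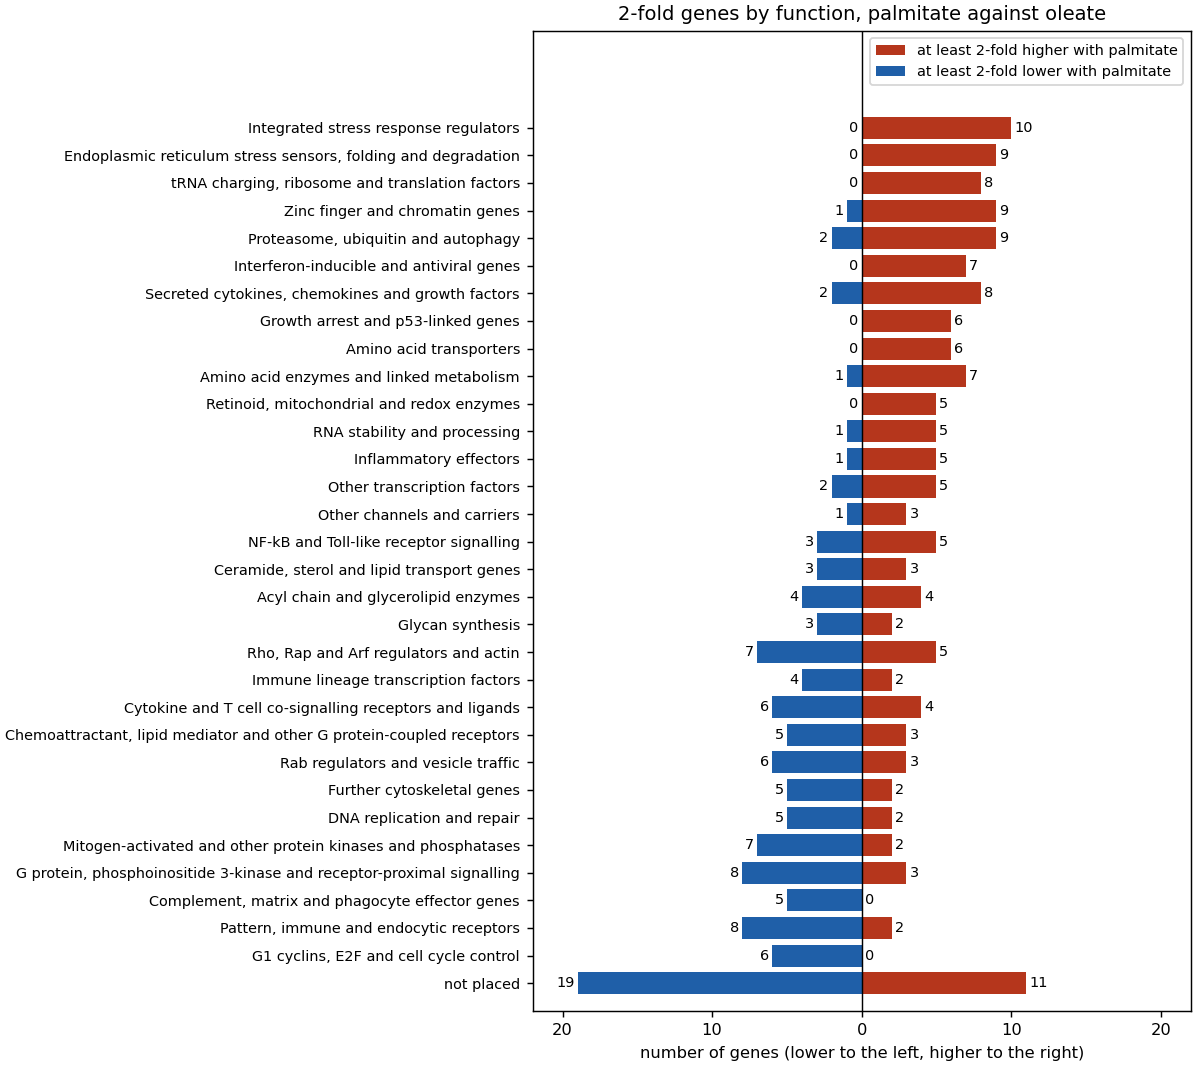
Number of genes at least 2-fold higher (red, to the right) and at least 2-fold lower (blue, to the left) on the palmitate array, in groups by known function. The stress response group held 10 higher and 0 lower genes, and the G1 cyclin group 0 higher and 6 lower.

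Regulators of the integrated stress response were far higher on the palmitate array. Trib3, a pseudokinase that ATF4 and CHOP induce, read 6.03 with oleate, 6.75 with elaidate and 9.71 with palmitate. Its difference of 3.68, or 12.8-fold, was the second in size among all genes. Ppp1r15a, whose product guides the phosphatase that restores translation, read 5.01, 5.04 and 8.12 on the same 3 arrays, a difference of 3.12, and only the palmitate value stood away. Nupr1, a small stress-induced chromatin protein, read 7.58, 8.43 and 10.49, and Atf4 itself read 8.34, 9.07 and 9.95, with differences of 2.91 and 1.61. For both, elaidate lay between. Sesn2, which restrains the growth kinase complex mTORC1, stood at 2.71 and Chac1, which breaks down glutathione, at 2.47. Lower in size were Eif4ebp1, the repressor of cap-dependent translation, at 1.43, the stress factor Atf3 at 1.30, Impact, an inhibitor of the amino acid sensor kinase GCN2, at 1.24, and Cebpg, a partner of ATF4, at 1.07. In the list of regulators 9 of the 21 members past the filter were 2-fold higher and none 2-fold lower, beside 1.65% and 1.22% of all genes, and the list's median was 0.48 beside 0. In all 13 of the 21 were higher, 4 lower and 4 equal, against 30.9%, 36.8% and 32.3% of all genes. Some members under the limit were thus higher too, and these are not named here. Most of the remaining members were kinases and exchange factor subunits close to 0. Eif2b1 stood at -0.16, Eif2ak2 at -0.13 and the endoplasmic reticulum kinase gene Eif2ak3 at 0.

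Amino acid supply genes were higher along the route from import to transfer RNA. Of 18 transporters past the filter 6 were 2-fold higher and none 2-fold lower, beside 1.65% and 1.22% of all genes. Their median was 0.33. The neutral amino acid exchanger Slc1a4 read 4.66 with oleate, 5.87 with elaidate and 7.95 with palmitate, a 9.78-fold difference between the first and the last. The glycine carrier Slc6a9 stood at 2.38, the cystine importer Slc7a11 at 1.86, the lysosomal glutamine carrier Slc38a7 at 1.84, the large neutral amino acid carrier Slc7a5 at 1.36 and the cationic carrier Slc7a1 at 1.27. Slc3a2, the partner chain of several of these, was at 0.95 and Slc38a2 at 0.80.

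Among enzymes, Cth, which makes cysteine from cystathionine, read 8.95, 9.76 and 11.66 on the oleate, elaidate and palmitate arrays, a difference of 2.70. The alanine transaminase Gpt2 stood at 2.01, the mitochondrial carboxykinase Pck2 at 1.85, Aldh18a1, the first step to proline, at 1.69, the branched-chain transaminase Bcat1 at 1.40 and the asparagine synthetase Asns at 1.10. Gch1, which starts the synthesis of tetrahydrobiopterin, was at 1.93. In the list of amino acid and one-carbon enzymes 5 of 18 were 2-fold higher, beside 1.65% of all genes, and the median was 0.50. It was not uniform, since the glutamine synthetase gene Glul stood at -0.99 while Mthfd2, of the mitochondrial folate cycle, stood at 0.99 and Got1 at 0.93. Dglucy, a D-glutamate cyclase, was the enzyme of this kind that was 2-fold lower, at -1.11.

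Cytosolic aminoacyl-tRNA synthetases, which load amino acids onto transfer RNA, had the highest median of all the lists, 0.81. Of 17 members 12 were higher, 1 lower and 4 equal, against 30.9%, 36.8% and 32.3% of all genes. Only Cars at 1.62, Nars at 1.22 and Tars at 1.00 reached the 2-fold limit, and Sars at 0.97, Iars at 0.94, Gars at 0.89 and Yars at 0.89 stood just under it. The difference was thus spread over most of the list rather than held by a few members. Other translation genes 2-fold higher were Cpeb4, which binds messenger RNA, at 1.60, the ribosome rescue factor gene Gtpbp2 at 1.52, Dus4l, which modifies transfer RNA, at 1.12, Mcts2 at 1.09 and the ribosome assembly gene Nop14 at 1.00. For ribosome biogenesis as a whole, 1 of 30 members was 2-fold higher and the median was 0.00.

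**Figure D3:**
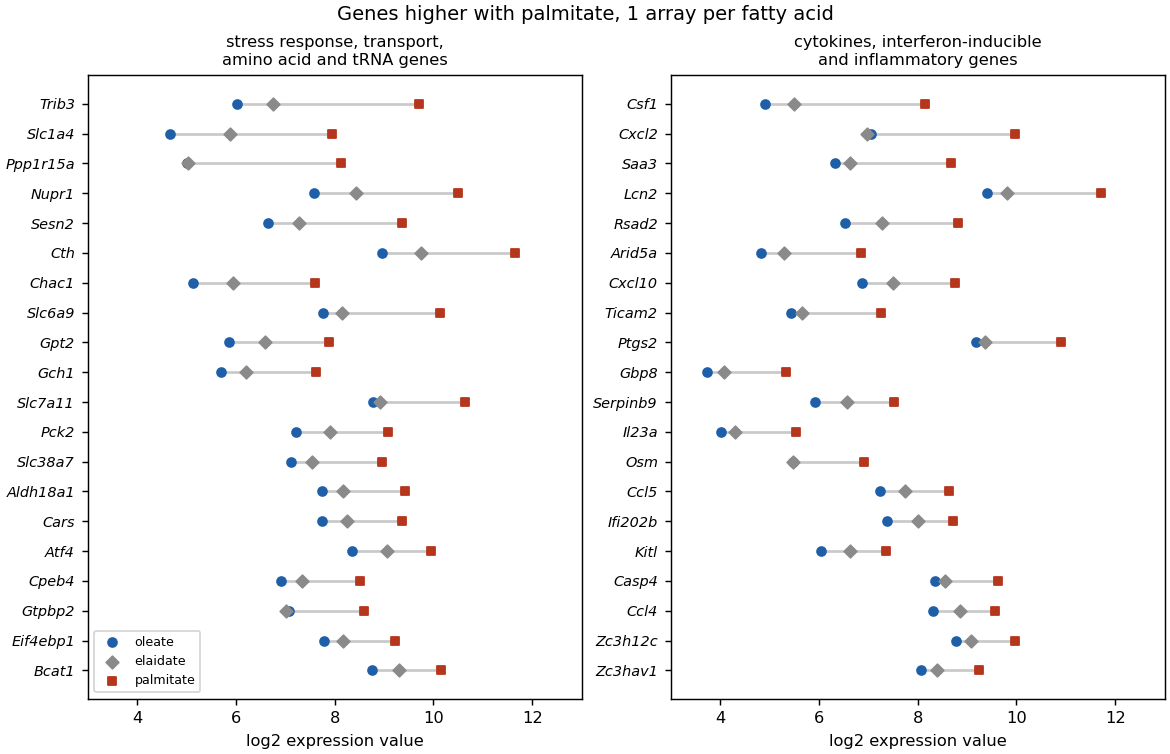
Log2 expression values on the oleate (blue circle), elaidate (grey diamond) and palmitate (red square) arrays for the 20 genes with the largest difference among stress, transport, amino acid and translation genes (left) and among cytokine, interferon-inducible and inflammatory genes (right). Trib3 runs from 6.03 to 9.71 and Csf1 from 4.91 to 8.14.

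Genes of endoplasmic reticulum stress were higher, though the main chaperone gene was not among those at the limit. Dnajb9, a co-chaperone, read 7.30 with oleate, 7.93 with elaidate and 9.30 with palmitate, a difference of 2.00. Herpud1, which organises the degradation of misfolded proteins, stood at 1.39, Crebrf at 1.38, the oxidase Ero1a at 1.22, and 2 of the stress sensors themselves, Ern1 and Atf6, at 1.10 and 1.02. The membrane-bound factor Nfe2l1, which drives proteasome genes, was at 1.07, the rhomboid protease gene Rhbdd1 at 1.19 and the ubiquitin ligase gene Rnf185 at 1.01. Hspa5, the main chaperone, read 11.84, 11.96 and 12.22, and Xbp1 stood at 0.42. In the list 6 of 31 members were 2-fold higher and none 2-fold lower, beside 1.65% and 1.22% of all genes. The list's median was 0.11. Heat shock proteins of the cytosol and mitochondria had no member at the limit among 15, with Hspa9 at 0.78, Dnajb1 at -0.70 and a median of 0.

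Genes of protein disposal joined the higher list. The autophagy receptor gene Sqstm1 read 10.29, 10.51 and 11.84 on the oleate, elaidate and palmitate arrays, a difference of 1.55. The proteasome-associated zinc finger genes Zfand2a and Zfand5 stood at 1.68 and 1.16, the deubiquitinase gene Usp2 at 1.27, Lgals8, a galectin that marks damaged vesicles, at 1.24, and Lonrf3 at 1.18. Fnip1 and Fnip2, partners of folliculin at the lysosome, were at 1.14 and 1.11 and C9orf72 at 1.00. Of ubiquitin ligase genes, Asb2 stood at -2.12 and Rnf145 at -1.28. The wider list of lysosome, proton pump and autophagy genes had a median of 0 over 38 members, with Sqstm1 as its only member at the limit, Gla at 0.82 and Tfeb, a driver of lysosomal genes, at -0.92.

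Growth arrest genes were among the highest of all. Gadd45a, which halts the cycle after damage or stress, read 6.83 with oleate, 7.26 with elaidate and 10.19 with palmitate, a 10.3-fold difference. The polo-like kinase gene Plk2 read 8.16, 9.57 and 11.32 and Ndrg1, induced by stress and low oxygen, 6.63, 6.88 and 9.43, with differences of 3.16 and 2.80. Mdm2, the ligase that removes p53, stood at 1.39, its binding partner Mtbp at 1.43 and Osgin2 at 1.38. The p53-linked list was divided, with 4 of 24 members 2-fold higher beside 1.65% of all genes. Its median was 0 and other targets were lower or near 0. Sesn1 stood at -0.98, Phlda3 at -0.89, and the cell cycle inhibitor gene Cdkn1a, a standard p53 target, at 0.12. In the BCL2 and cell death list Casp4, an inflammatory caspase, at 1.29 was the only one of 22 at the limit, and the median was 0. Antioxidant genes of the NRF2 list had Slc7a11 and Sqstm1 at the limit among 30, with Nfe2l2 at 0.03 and a median of 0.

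Secreted factors were mostly higher. Csf1, the growth factor on which macrophages depend, read 4.91 with oleate, 5.50 with elaidate and 8.14 with palmitate, a 9.38-fold difference. The neutrophil chemokine Cxcl2 read 7.06, 6.98 and 9.96, and only palmitate stood away. Cxcl10, which draws activated T cells, stood at 1.88, the interleukin subunit gene Il23a at 1.52, oncostatin M (Osm) at 1.44, Ccl5 at 1.40, Kit ligand (Kitl) at 1.32 and Ccl4 at 1.26. Igfbp4, a binder of insulin-like growth factors, at -1.52 and the semaphorin gene Sema4a at -1.17 were lower. In the chemokine list 11 of 19 members passed the filter, and 4 of these 11 were 2-fold higher beside 1.65% of all genes. Their median was 0.54, with Ccl3 at 0.79 and Cxcl16 at -0.35. The broader cytokine list had 4 of 22 at the limit, all higher, beside 1.65% of all genes, and a median of 0.01. Its classical inflammatory members were not among the 4, since Tnf read 10.01, 10.02 and 10.34 and Il1b 5.99, 5.81 and 5.32. The receptor antagonist gene Il1rn stood at 0.95 and the lymphotoxin gene Ltb at -0.90.

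Inflammatory effectors were also higher. Ptgs2, the inducible prostaglandin synthase, read 9.19 with oleate, 9.36 with elaidate and 10.91 with palmitate. The acute phase gene Saa3 stood at 2.36, the iron-withholding lipocalin gene Lcn2 at 2.31, and Serpinb9, an inhibitor of granzyme B, at 1.61. Eicosanoid genes went both ways among enzymes and among receptors. Ptgs2 at 1.71 and the prostaglandin D synthase gene Hpgds at 0.90 were higher, while Alox5, which starts leukotriene synthesis, at -1.10, the prostaglandin receptor gene Ptger4 at -1.54 and the leukotriene receptor gene Cysltr1 at -1.46 were lower, and the 5-lipoxygenase partner Alox5ap stood at -0.80. The prostacyclin receptor gene Ptgir stood at 0.45 and Ptger2 at 0.20. That list had 6 members higher, 6 lower and 5 equal of 17, with a median of 0.

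Signalling towards NF-kB held both directions. Arid5a, which protects inflammatory messenger RNAs, stood at 2.04, Ticam2, an adaptor of the lipopolysaccharide receptor, at 1.82, Zc3h12c at 1.19, Traf1 at 1.10 and the inhibitor gene Nfkbib at 1.03. Tifab read 7.45, 6.97 and 5.29 on the oleate, elaidate and palmitate arrays, the nuclear inhibitor gene Nfkbid stood at -1.13 and Themis2 at -1.19. Over the 29 members of the NF-kB list 2 were 2-fold higher and 2 were 2-fold lower, beside 1.65% and 1.22% of all genes. Its median was 0. The subunit genes lay below the limit, with Rel at 0.71, Relb at 0.46 and Rela at 0.20, and the inhibitor gene Nfkbia at -0.06.

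Interferon-inducible genes were higher, and none was 2-fold lower in the group as placed or in the fixed list. Rsad2, an antiviral enzyme, read 6.53, 7.27 and 8.82 on the oleate, elaidate and palmitate arrays. The guanylate-binding protein genes Gbp8 and Gbp7 stood at 1.61 and 1.02, with Gbp8 under the filter level on the oleate and elaidate arrays at 3.74 and 4.09 and above it at 5.34 with palmitate. Further members were Ifi202b at 1.33, the antiviral zinc finger gene Zc3hav1 at 1.19, Ifit1 at 1.12 and Mx2 at 1.01. In the list 21 of 30 members were higher, 1 was lower and 8 were equal, against 30.9%, 36.8% and 32.3% of all genes, and the median was 0.20. Isg15 at 0.91, Oasl1 at 0.89 and Cmpk2 at 0.88 lay just under the limit and Irf5, at -0.75, was the member that was lower. Gbp7, Gbp8, Ifi202b, Acot2 and Mcts2 belong to families with close copies, whose probes can take up each other's RNA, which was not tested.

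Promoters of these genes were searched for short sequence elements on both strands, in windows from 250 bases before to 50 after each RefSeq gene start (GRCm38.p6). A window was found by symbol for 7667 of the 9410 genes, 120 of the higher and 93 of the lower. The stretches printed in this paragraph come from higher genes chosen by hand among those with a match, and show where the element lies. They are written 5′ to 3′ along the gene, with 1 copy of the element, or of its reverse complement, in capitals, and the capitals lie before the start. Rsad2 and Ifit1 each have 2 interferon response cores before the start, and the second lies in lower case within the printed stretch, as does an AP-1 element for Rsad2. The NF-kB core GGANTTTCC was present for 5.00% of the higher, 2.15% of the lower and 1.57% of all genes kept, and in 1.25% of all 32851 windows. These were 6 of 120 higher and 2 of 93 lower genes. Not printed are Mdfic and Zfp945, which were higher, and Dusp6 and Il18rap, which were lower. The interferon response core TTTCNNTTT was present for 13.3%, 7.53% and 9.39%, and in 10.6% of windows. Its 16 higher genes also included Zfp420, Aqp9 and Bcar3. The element TGACGTCA, bound by cyclic AMP-responsive and ATF factors, was present for 5.00%, 1.08% and 3.94%, and in 1.79% of windows. The C/EBP-ATF element TGATGNAAT was rare, at 1.67%, 0% and 0.46%, and in 0.96% of windows. The AP-1 element TGANTCA was present for 10.0%, 5.38% and 5.61%, and in 7.81% of windows. None of the matches in capitals overlapped a match of another element. With only the bases before the start, the C/EBP-ATF element was left in 1 higher gene, 0.83%, and AP-1 in 3.23% of the lower genes. A match is a run of letters and not evidence of binding, and these shares carry no test.
Nupr1, C/EBP-ATF element, chr7:126625543-126625611, minus strand: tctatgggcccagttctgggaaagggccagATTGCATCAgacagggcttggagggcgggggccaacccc
Ppp1r15a, ATF dimer element, chr7:45526269-45526310, minus strand: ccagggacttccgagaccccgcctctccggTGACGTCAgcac
Plk2, ATF dimer element, chr13:110394952-110395019, plus strand: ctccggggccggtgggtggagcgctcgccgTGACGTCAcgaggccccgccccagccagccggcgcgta
Csf1, NF-kB core, chr3:107760585-107760653, minus strand: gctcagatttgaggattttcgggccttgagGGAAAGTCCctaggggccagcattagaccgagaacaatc
Cxcl2, NF-kB core, chr5:90903773-90903841, plus strand: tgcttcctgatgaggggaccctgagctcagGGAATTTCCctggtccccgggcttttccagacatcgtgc
Cxcl10, NF-kB core, chr5:92349009-92349077, minus strand: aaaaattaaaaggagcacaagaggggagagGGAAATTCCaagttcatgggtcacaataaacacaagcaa
Ccrl2, NF-kB core, chr9:111057548-111057616, minus strand: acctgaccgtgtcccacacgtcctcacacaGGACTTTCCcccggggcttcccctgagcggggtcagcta
Rsad2, interferon response core, chr12:26456521-26456589, minus strand: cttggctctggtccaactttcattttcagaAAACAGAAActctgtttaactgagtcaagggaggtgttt
Ifit1, interferon response core, chr19:34640774-34640842, plus strand: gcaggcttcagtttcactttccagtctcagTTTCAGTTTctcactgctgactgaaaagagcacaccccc
Gbp7, interferon response core, chr3:142530253-142530321, plus strand: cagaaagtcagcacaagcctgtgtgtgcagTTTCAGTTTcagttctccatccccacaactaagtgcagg

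Receptor genes held the 4 lowest differences of the comparison, those of Cx3cr1, Trem1, Tlr8 and Vsir. Cx3cr1, the receptor for fractalkine, read 7.55 with oleate, 7.31 with elaidate and 4.78 with palmitate, a 6.82-fold difference and the lowest of all genes. The purine receptor gene P2ry6 stood at -1.65 and Gpr183, a receptor for oxysterols, at -1.08. For Ptger4, with 8.11, 8.35 and 6.57, and Cysltr1, with 6.92, 7.11 and 5.46, the elaidate array was the highest. The prostaglandin receptors Ptgir and Ptger2 were instead highest with palmitate and lowest with elaidate, with Ptger2 at 5.29, 5.26 and 5.48. Not all such receptors were lower. Gprc5a, an orphan receptor induced by retinoic acid, read 4.91, 5.13 and 8.63, the highest difference of all genes at 13.2-fold, Ccrl2, which binds chemerin, stood at 2.43 and Calcrl, a receptor for calcitonin-related peptides, at 1.52. In the list of chemoattractant and adhesion receptors 1 of 26 was 2-fold higher and 2 were 2-fold lower, with a median of -0.03. The platelet-activating factor receptor gene Ptafr at 0.98, Selplg at -0.85, Cxcr3 at -0.80 and Itgal at -0.79 followed.

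Immune receptors that sense microbes or signal through ITAM adaptors were more often lower than higher. The summed macrophage markers were also lower on the palmitate array, at 97.4 beside 100.5, and their part in these differences was not tested. Trem1 read 7.06, 6.55 and 4.57 on the oleate, elaidate and palmitate arrays, and Tlr8, an endosomal sensor of RNA, 8.57, 8.45 and 6.16. Nfam1, an ITAM-bearing receptor, stood at -1.94, the lectin gene Clec4a1 at -1.65 and Lrrc25 at -1.18. Of 35 members of the TREM, Fc receptor and ITAM list 5 were 2-fold lower and none 2-fold higher, 23 were lower in all, and the median was -0.16. Of 29 pattern receptors 2 were 2-fold lower and 19 lower in all, with a median of -0.27. Over all genes kept 36.8% were lower and 30.9% higher, and 1.22% were 2-fold lower. Further endosomal sensors lay below 0, with Tlr9 at -0.70, Tlr7 at -0.69 and Tlr13 at -0.64, beside the surface flagellin sensor Tlr5 at -0.79 and the inflammasome sensor Nlrc4 at -0.93. Aim2, a sensor of DNA, was an exception at 0.60. Receptor-proximal genes went with them. The docking adaptor genes Dok3 and Dok2 stood at -1.35 and -1.16, the phosphatase gene Ubash3b at -1.12 and Inpp5d at -0.92.

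Receptors and ligands for cytokines and T cells were divided. Cd274, the checkpoint ligand PD-L1, read 6.85 with oleate, 7.66 with elaidate and 9.47 with palmitate. The interleukin receptor chain gene Il7r stood at 2.39, the costimulatory receptor gene Cd28 at 1.30 and the poliovirus receptor gene Pvr at 1.16. Another checkpoint gene, Vsir, went the other way at 7.25, 6.80 and 4.87. The receptor chain genes Il6ra, Csf2rb, Il10ra and Il18rap stood at -1.37, -1.24, -1.08 and -1.05, and the adhesion gene Nectin1 at -1.06. For Il18rap the elaidate array held the highest value, with 6.78, 7.09 and 5.73.

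Genes for the clearance of apoptotic cells and particles were mostly lower. Mertk, a receptor kinase for dying cells, read 7.67, 7.30 and 5.57 on the oleate, elaidate and palmitate arrays, a 4.28-fold difference. The complement genes C1qa and C1qc, which opsonise debris, stood at -1.48 and -1.26, and their partner chain C1qb at -0.67. Of 11 members of this list 9 were lower, 3 of them 2-fold, beside 36.8% and 1.22% of all genes, and the median was -0.46. The scavenger receptor gene Marco read 7.64, 6.94 and 6.50, and its list had 8 of 12 lower and a median of -0.21, with Lrp1 at -0.78, Scarb1 at -0.68 and Scarb2 at -0.65. Tgfbi, a matrix protein gene, read 9.74, 9.09 and 7.74, and Rnase6 and Nrros stood at -1.18 and -1.19. The fixed list of matrix, protease and phagocyte effector genes was divided, with 7 of 18 members higher and 7 lower and a median of 0. Saa3 and Lcn2 were its members 2-fold higher and Tgfbi the one 2-fold lower, with the gelatinase gene Mmp9 at -0.62, the inhibitor gene Timp2 at -0.57 and Acod1, which makes itaconate, at 0.50. Rnase6 was highest with elaidate, at 5.82, 6.49 and 4.64. The Wnt coreceptor gene Lrp5 stood at -1.25. On the higher side were the protein C receptor gene Procr at 1.33 and Lrp12 at 1.02.

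**Figure D4:**
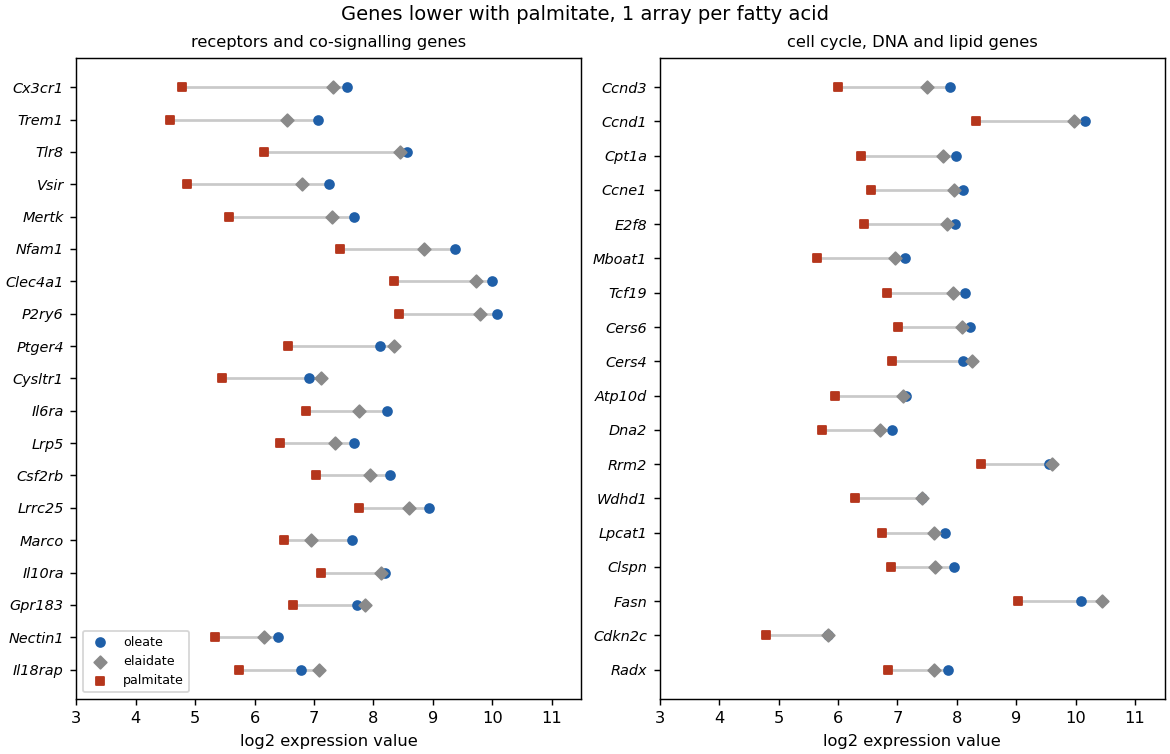
Log2 expression values on the oleate (blue circle), elaidate (grey diamond) and palmitate (red square) arrays for receptors and co-signalling genes (left) and the cell cycle, DNA and lipid genes (right) that were at least 2-fold lower with palmitate. Cx3cr1 runs from 7.55 to 4.78 and Ccnd1 from 10.16 to 8.33.

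Factors that set macrophage identity were lower in part. Irf8 read 9.34 with oleate, 8.84 with elaidate and 7.95 with palmitate, Maf 6.34, 5.90 and 4.96, and the calcium-responsive factor gene Nfatc2 stood at -1.54. In contrast Spi1, the gene of the lineage factor PU.1, stood at -0.10. Over 34 members of the lineage list 3 were 2-fold lower and 19 lower in all, beside 1.22% and 36.8% of all genes. The median was -0.08, with Lyz2 at -0.83, Adgre1 at -0.66 and the inhibitor gene Id2 at 1.00, just short of the limit. Gata3, better known from T cells, stood at 1.70 and Nfil3 at 1.02. Fos stood at -1.28 and Atf3 at 1.30, and the immediate early list around them had a median of 0 over 27 members. Further transcription factors on the higher side were Snai2 at 1.42, Tgif1 at 1.32, Lmo4 at 1.23, Etv1 at 1.22 and the clock gene Arntl at 1.02, and on the lower side Zfhx3 at -1.05 and Hoxc6 at -1.04.

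The purine-rich element GAGGAAGT, which PU.1 and other ETS factors bind, was present in the promoter windows of 9.68% of the lower, 1.67% of the higher and 3.85% of all genes kept, and in 3.20% of all windows. The stretches below come from lower genes chosen by hand, in the same layout as those of the higher genes. The E2F elements TTTGGCGC and TTTCCCGC were present for 0% and 3.23% of the lower genes, 0.83% and 0.83% of the higher, and 1.28% and 2.78% of all genes kept, and in 0.51% and 1.07% of windows. With only the bases before the start, TTTCCCGC was in 0% of the higher genes.
C1qc, ETS element, chr4:136893072-136893139, minus strand: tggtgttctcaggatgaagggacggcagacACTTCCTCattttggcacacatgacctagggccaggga
Pik3cg, ETS element, chr12:32208624-32208691, minus strand: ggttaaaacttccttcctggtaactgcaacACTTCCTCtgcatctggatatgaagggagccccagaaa
Nfkbid, ETS element, chr7:30423129-30423196, plus strand: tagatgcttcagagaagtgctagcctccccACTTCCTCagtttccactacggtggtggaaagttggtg

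Of genes at the limit, the group of G protein, phosphoinositide 3-kinase and receptor-proximal signalling had 3 higher and 8 lower, and that of protein kinases and phosphatases 2 and 7. The phosphoinositide 3-kinase subunit genes Pik3cd and Pik3cg stood at -1.62 and -1.01, the downstream kinase gene Sgk3 at -1.02, the G protein gene Gna15 at -1.60 and the adenylate cyclase gene Adcy7 at -1.43. The fixed list of G protein signalling regulators and receptors was divided, with 8 of 15 members higher and 5 lower, 3 and 2 of them 2-fold, and a median of 0.01. Rgs1, which shortens chemokine signals, read 6.22, 7.18 and 9.37 on the oleate, elaidate and palmitate arrays, Rgs2 stood at 1.31, Rgs14 at -0.93, Rgs18 at -0.42 and the exchange factor gene Rasgef1b at 1.47. Of the phosphatases that end mitogen-activated kinase signals, Dusp1, which acts on stress kinases, read 8.94, 8.86 and 10.62, and Dusp6, which acts on ERK, 9.15, 8.84 and 7.39. Their list had 8 of 19 members higher and 6 lower, and a median of 0. The stress kinase gene Mapk14 stood at -1.12, Trib1 at -1.38, Nuak2 at -1.24, Stk17b at -1.08, Ctdspl at -1.07 and Pald1 at -1.01, with Stk40 at 1.16 on the higher side. Thus 2 members of the Tribbles family, Trib3 and Trib1, had opposite signs.

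Regulators of small GTPases and of actin formed a large share of the lower list. Spata13 stood at -1.38, the Rap regulator Sipa1 at -1.29, the exchange factor Dock8 at -1.25, Cyth4 at -1.19, Cdc42ep3 at -1.18, Arhgap45 at -1.16 and the formin Fmnl1 at -1.15. Rassf2 at -1.24, Rcsd1 at -1.19, Hip1 at -1.13, Arhgef40 at -1.08 and the Rac exchange factor Tiam1 at -1.08 belong with them. For vesicle traffic, the granule gene Nbeal2 stood at -1.91, Rab3il1 at -1.74, Rin2 at -1.70, Trappc1 at -1.16, Syt11 at -1.07 and Rab3d at -1.01. Higher were Napb, of vesicle fusion, at 2.08, the adaptor Bcar3 at 2.06, Cep162 at 1.89, Arl11 at 1.38, Rab11fip1 at 1.31, the actin regulator Eps8 at 1.23, the kinesin Kif3a at 1.21, Gas2l3 at 1.19, Dennd4a at 1.15 and Arfgap3 at 1.10.

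Genes of G1, DNA replication and mitosis were mostly lower, with the lowest median in those of G1. Ccnd1, a D-type cyclin induced by growth factors, read 10.16 with oleate, 9.97 with elaidate and 8.33 with palmitate, a 3.56-fold difference. Ccnd3 read 7.89, 7.49 and 6.00 and Ccne1, the cyclin of S phase entry, 8.11, 7.96 and 6.55. E2f8 stood at -1.53, Tcf19 at -1.31 and the inhibitor Cdkn2c at -1.04. Of 28 members of the G1 list 21 were lower, 5 of them 2-fold, beside 36.8% and 1.22% of all genes. The median was -0.37. Cdk2 at -0.79, Mybl2 at -0.73 and the activator genes E2f1 and E2f2 at -0.69 each followed, while the partner kinase genes Cdk4 and Cdk6 stood at -0.10 and 0.16.

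DNA replication genes were lower by smaller amounts, 39 of 45 beside 36.8% of all genes, with a median of -0.33. The ribonucleotide reductase subunit Rrm2 read 9.55, 9.60 and 8.41, and it was the only member of the list at the limit. Tk1 at -0.88, Chaf1a at -0.74, Rpa2 at -0.72 and Mcm6 at -0.71 came next. Outside the list, the replication and fork genes Dna2 at -1.18, Wdhd1 at -1.12, Clspn at -1.07 and Radx at -1.02 were 2-fold lower, and the single-strand binding gene Nabp1 at 1.03 and the repair gene Abraxas1 at 1.01 were higher. Mitosis genes were nearer 0, with 26 of 34 lower, none at the limit and a median of -0.10. Aurkb stood at -0.67 and Plk1 at -0.50. Replication-type histone genes did not share this pattern, with a median of 0 over 20 members, H1f2 at 1.02 and H2bc4 at 0.65. The DNA repair list, with Clspn as its only member at the limit, also had a median of 0. Of its 24 members past the filter 2 were higher, 11 lower and 11 equal.

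Lipid genes were divided step by step. Cpt1a, which admits acyl chains to the mitochondrion for oxidation, read 7.98 with oleate, 7.78 with elaidate and 6.39 with palmitate, a 3.02-fold difference. The fatty acid synthase gene Fasn read 10.09, 10.45 and 9.04. The acyltransferases that remodel phospholipids, Mboat1 and Lpcat1, stood at -1.47 and -1.07, the ceramide synthases Cers6 and Cers4 at -1.21 and -1.20, and the flippase Atp10d at -1.19. Higher were Acot2, a mitochondrial acyl-CoA thioesterase, at 9.22, 9.68 and 11.37, a second thioesterase gene, Them4, at 1.10, the elongase Elovl3 at 1.27 and Gpat3, which starts triglyceride synthesis. Gpat3 read 3.76 with oleate and with elaidate, under the filter level, and 5.41 with palmitate. Of sterol genes the exporter Abcg1 stood at 1.34, Osbpl2 at 1.09 and Eepd1 at 1.03, with the exporter Abca1 at 0.89. The lists around these genes had medians from -0.16 to 0. They were 0 for triglyceride, phospholipid, ceramide, acyl-CoA and LXR genes, -0.01 for fatty acid oxidation over 23 members, -0.02 for cholesterol synthesis over 23 and -0.16 for fatty acid synthesis over 14. More members were lower than higher in the lists of fatty acid synthesis, 10 and 3, phospholipids, 12 and 4, and ceramide, 12 and 6. The same held for fatty acid oxidation, 12 and 5, cholesterol synthesis, 13 and 9, and triglyceride genes, 9 and 6. Acyl-CoA genes had 4 of each, and LXR genes 4 lower and 7 higher. Over all genes kept 36.8% were lower and 30.9% higher. Plin2, the main droplet coat gene of macrophages, stood at 0.17, and Angptl4 at -0.33.

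Among genes at the limit, the group of retinoid, mitochondrial and redox enzymes had 5 higher and 0 lower, and that of other channels and carriers 3 and 1. The retinol-handling genes Adh7 and Dhrs9 stood at 2.72 and 1.16, Cox6a2, a cytochrome oxidase subunit typical of muscle, at 2.58, Cyb5r1 at 1.56 and the pyrimidine carrier Slc25a33 at 1.17. Cox6a2 read 4.30, 4.97 and 6.88 on the oleate, elaidate and palmitate arrays. The listed subunits of oxidative phosphorylation, which did not include it, were lower by little, 41 of 45 beside 36.8% of all genes. Their median was -0.14 and none was at the limit. Mitochondrial ribosomal proteins had a median of 0 over 53 members. The glycerol channel Aqp9 stood at 2.32, Slc46a3 at 1.71 and Mcoln2 at 1.13, with Ttyh3 at -1.11. Hypoxia and glycolysis genes had a median of -0.03 over 26 members, with Ndrg1 and Ero1a at the limit and Pdk1 at -0.85. In glycan synthesis Gnpnat1 at 1.21 and Galnt3 at 1.14 were higher, and the Notch modifier Lfng at -2.02, Extl3 at -1.24 and St3gal4 at -1.02 lower.

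Among genes that act on RNA and chromatin, Tent5c, a poly(A) polymerase, read 5.74, 6.23 and 8.38 on the oleate, elaidate and palmitate arrays. Ints6l stood at 1.59, Rnf113a1 at 1.53, Scarna13, a guide RNA of Cajal bodies, at 1.51 and the splicing kinase Clk4 at 1.07, while Zfp36l2, which destabilises messenger RNA, stood at -1.25. For Scarna13 the elaidate value lay beside that of palmitate, with 6.97, 8.32 and 8.48. The remodeller Chd2 stood at 1.62, the histone methyltransferase Dot1l at 1.23 and another, Kmt5c, at -1.02. Further zinc finger genes on the higher list were Zfp420 at 1.61, Zfp639 at 1.18, Zfp945 at 1.11, Zfp469 at 1.10, Nfxl1 at 1.08 and Zbtb21 at 1.04.

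The 30 genes that were not placed were 11 higher and 19 lower. They included Glrp1 at 2.44, Arl14ep at 1.63, Mdfic at 1.61, Srfbp1 at 1.28, D6Wsu163e at 1.27 and Ptchd1 at 1.25 on one side, and Tnfaip8 at -1.67, Crip1 at -1.63, Mmd at -1.51, Tmem50b at -1.50, Fam102b at -1.46, Soga1 at -1.41 and Ankrd44 at -1.37 on the other. Mllt11, Fndc3a, Tbc1d31 and Fam13a were higher by 1.18 or less, and Unc119, Kctd2, Tor4a, Itpripl1, Wdr6, Klhl6, Wdfy2 and Tmem229b stood between -1.28 and -1.04, with Dnaaf3 just past the limit. Position on the chromosome was also looked at, without a count expected for so many genes. Of 266 with a place among protein-coding genes in the RefSeq annotation, 4 pairs were direct neighbours, and C1qc with C1qa, Lfng with Ttyh3 and Abraxas1 with Gpat3 had the same sign, while Gch1 and Wdhd1 had opposite signs.

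**Figure D5:**
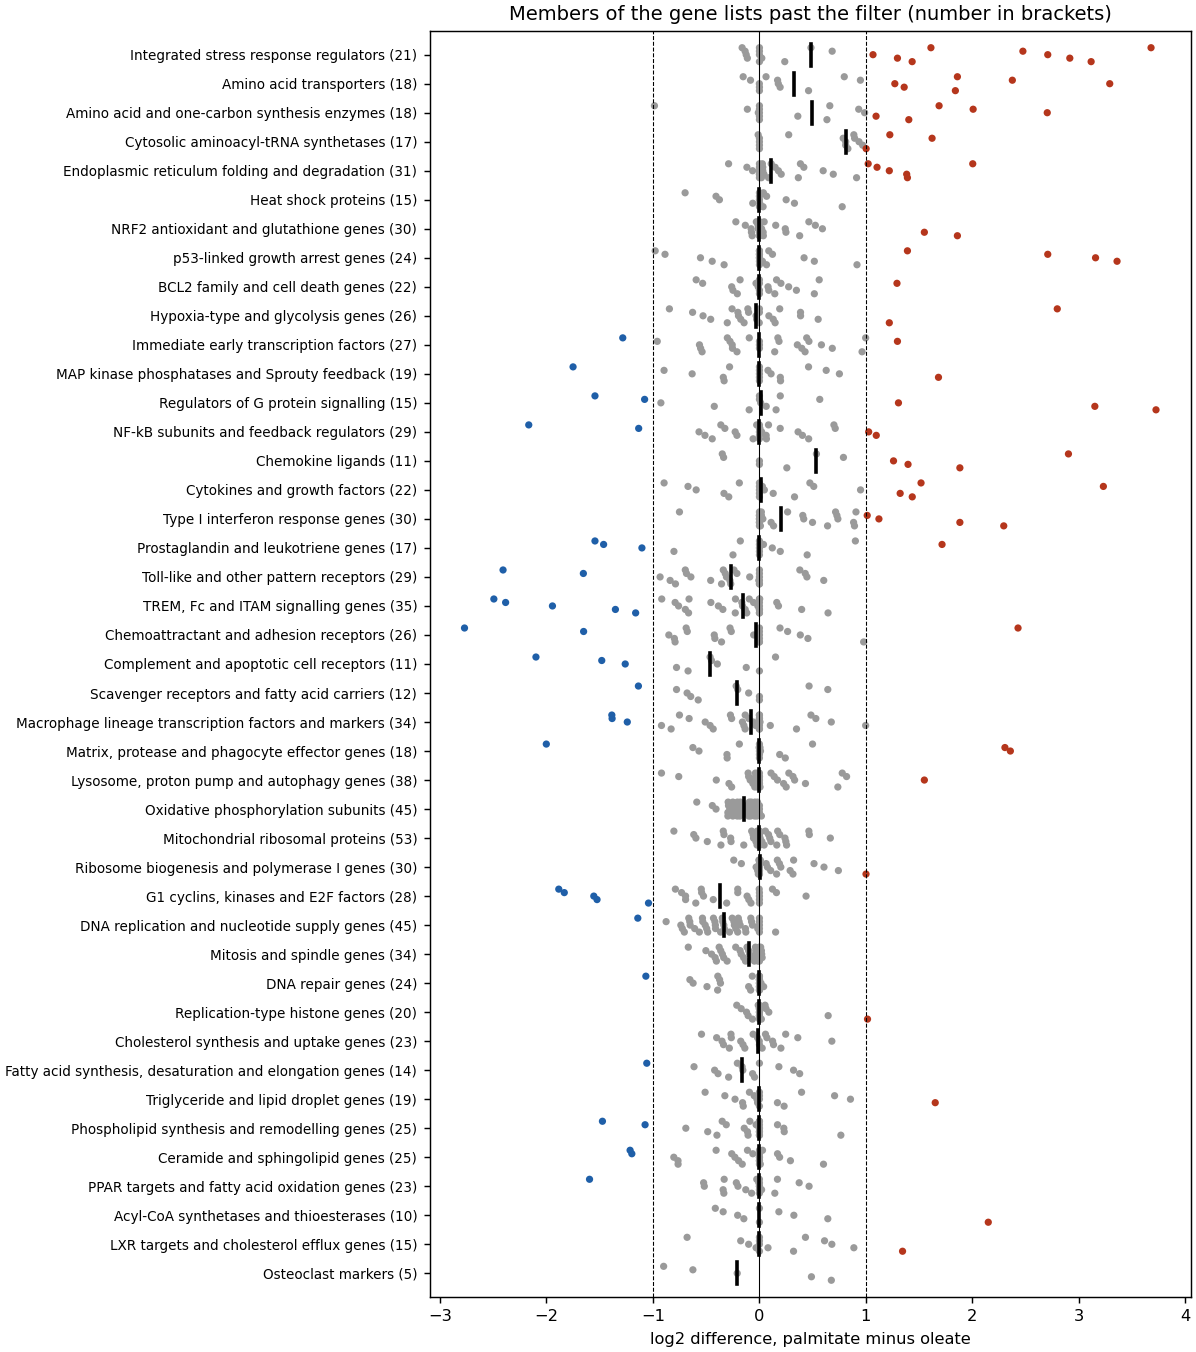
Log2 difference, palmitate minus oleate, for each member past the filter of the gene lists with at least 5 such members. Points are genes, red or blue beyond the dashed 2-fold lines, and black bars are medians. The aminoacyl-tRNA synthetases have the highest median, 0.81, and the complement and apoptotic cell receptors the lowest, -0.46.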

How the data were processed

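RNA of 3 RAW264.7 cultures, 1 per fatty acid, was measured on 3 arrays, and the palmitate and oleate arrays were compared. The authors deposited 1 log2 value for each probe set and array, computed by RMA; the tool's name, without a version, comes from the submitters' processing notes. RMA subtracts background, equalises the distributions of arrays and summarises probes, which can shrink differences of low genes. Of 35556 probe sets, 21218 had 1 gene symbol in the platform annotation, 1881 had several and were not used, and the others were not named there. Symbols were matched to RefSeq for 21185. Probe sets of a gene were averaged, and genes with a mean over the 3 arrays of at least 4.14, the median, were kept. Arrays have no depth to report, and their number limits the precision. With 1 array per fatty acid no test was made.

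Genes and lists were chosen with earlier results of these data known. The genes named are, in each list or group, those at least 2-fold different and up to 4 further members furthest from 0, with the regulators and markers that define it; Aim2, Angptl4, Tlr7 and Tlr13 fall outside this rule and were chosen after their values were seen. Predicted genes were counted but not named, as were the higher members under the limit in the list of stress response regulators. Promoter windows came from RefSeq sequences of GRCm38.p6. The counting step was tested on simulated data. Alternatives were other filters, fold limits, probe set rules, centring of arrays, cyclic loess (limma 3.58.1 in R 4.3.3), list means and a shorter promoter window. Python 3.11.15, numpy 2.4.6 and pandas 2.3.3 were used.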

Additional observations from a re-analysis of the deposited data

How the results depend on the processing

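The counts of 155 higher and 115 lower genes were 157 and 116 without the filter, 155 and 115 when the filter took a gene's highest array, 156 and 115 after cyclic loess, 162 and 118 with the probe set of the highest mean, and 154 and 112 without predicted and similar symbols. Centring each array on its median gave 140 and 132, with all 140 among the 155 and all 115 among the 132. A filter at the 75th percentile, which tests 4705 genes, gave 95 and 62. A 1.5-fold limit gave 430 and 445, and a 3-fold limit 57 and 24. List medians changed sign in 5 cases, all starting within 0.03 of 0. Hypoxia and glycolysis genes had a mean of 0.073, and after centring the G protein regulators stood at -0.028, cytokines at -0.026 and ribosome biogenesis at -0.036. Cytokines stood at -0.094 with the 75th percentile filter. A further 44 list medians did not change sign but moved beyond the spread between probe sets, 18 with the mean over members, 13 without equal members, 8 without the filter and 5 with the 75th percentile filter. By the mean, cytokines stood at 0.32, p53-linked genes at 0.40 and TREM, Fc and ITAM genes at -0.42. With only the 250 bases before the start, 6 promoter shares moved outside the binomial interval of the main share, 5 of them over all genes kept. A shorter window can only lose matches, and this interval is narrowest over the 7667 genes. No paired analysis was possible because each fatty acid has 1 array. Differences between cultures cannot be told apart from those between fatty acids.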
